A study of Mus musculus with 2 samples.

Results

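Chaperone, degradation and translocation genes of the endoplasmic reticulum (ER) were compared between samples described as beta cells from wild-type mice and mice lacking CSE. The set was defined by function as 56 genes, with earlier results of these data known. Its members were the gene probes on the arrays that carried one of these names. All 56 genes were found, with 78 probes of the 55681 on the array, and all 56 were measured, that is, well above background on both arrays by at least 1 probe. They are 56 of 22160 measured genes. For description they were divided into 5 stress sensors, 21 chaperones and folding enzymes, 10 genes of ER-associated degradation (ERAD) and 20 genes of translocation, signal cleavage and glycosylation.

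There were 2 samples, each hybridised to 1 single-colour mouse oligonucleotide array. The control, CSE-WT(HFD+), was wild type and the other, CSE-KO(HFD+), carried a CSE knockout. Both were described as beta cells of the C57BL/6J strain, from animals 6 months old that were fed a high-fat diet. The gene Cth encodes CSE (cystathionine gamma-lyase), which forms cysteine and is a source of hydrogen sulfide in cells. The kind of knockout, the number of animals pooled and the way in which the cells were isolated are not given in the sources used here. The question is what CSE loss goes along with in the transcriptome of these samples when the diet is rich in fat.

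Beta cells make very large amounts of proinsulin, which enters the ER through the Sec61 channel, loses its signal peptide and folds with the help of chaperones and disulfide isomerases. Chains that fail to fold are drawn back to the cytosol and degraded, which is ERAD. When unfolded protein accumulates, the sensors IRE1 (Ern1), ATF6 and PERK (Eif2ak3) start the unfolded protein response. IRE1 splices the mRNA of Xbp1, and the resulting factor, together with ATF6, raises transcription of chaperone and ERAD genes.

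Levels below are scaled levels, the log2 of the intensity minus the 75th percentile of the array. That percentile was 519 units in CSE-WT and 540 in CSE-KO, no spot was saturated, and 31718 and 33178 of the 55681 probes were above background. Differences are CSE-KO minus CSE-WT in log2 units. Since each genotype had 1 array, no difference could be tested or checked in a replicate, and the values describe these 2 samples. The only error that could be measured was spot noise, taken from 399 probes printed 10 times on each array. The spot SD of a difference was between 0.012 and 0.097 over the members (median 0.051). A difference over 3 spot SDs is larger than printing and scanning noise, and says nothing about animals or preparations. The 2 probes of Cth gave 13.5 and 12.8 units in CSE-WT against 3.15 and 3.68 in CSE-KO, but none of these signals was well above background, so they gave no firm check of the labels.

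Markers of other pancreatic cells were present in both samples, so neither held beta cells alone. Levels in CSE-WT and CSE-KO were 9.52 and 9.39 for the alpha cell gene Gcg and 8.53 and 8.11 for the acinar gene Amy2a5. Those of the beta cell gene Ins2 were 9.32 and 9.26. All 7 alpha cell markers had lower levels in CSE-KO (median -0.38), and their summed scaled intensity (each level taken out of the log) went from 1151 to 1019. Acinar markers had a summed intensity of 1697 in CSE-WT and 1615 in CSE-KO, with 13 of 23 higher (median 0.04). Macrophage markers were higher in 10 of 12 (median 0.37) and stellate cell markers in 7 of 7 (median 0.44). Beta cell markers were higher in 5 of 12 (median -0.09), from 3052 to 2827 in sum; this list includes Ero1lb, without which 5 of 11 were higher (median -0.06). Delta and PP cell markers (1 of 4 higher, median -0.08), duct markers (3 of 5, 0.14) and endothelial markers (4 of 6, 0.11) were also present. Among plasma and B cell markers, Ms4a1, Pou2af1 and Tnfrsf17 were not above background on both arrays, and the 5 measured summed to 1.17 and 1.16. Acinar and plasma cells are secretory cells rich in the same ER genes, and the part of any of these cell types in the results below was not tested. In such bulk samples, fewer cells of a type and less RNA per cell cannot be told apart.

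The ER genes differed little between the genotypes, and most differences were to the higher side in the CSE-KO array. None of the 56 reached 2-fold in either direction, against 0.718% of all measured genes that were higher by that much and 0.884% that were lower. Over genes above the median level, where 55 of the members lay, these shares were 0.126% and 0.0271%. By any amount 36 of 56 (64.3%) were higher, against 48.7% of all measured genes and 44.0% of those above the median level. The other 20 were lower, against 51.3% of all measured genes. Under 4 other scalings between 37 and 41 members were higher (66.1% to 73.2%). Of all measured genes 52.1% to 56.2% were then higher, and of those above the median level 49.0% to 53.9%. By the scaling used here the median difference of the members was 0.07 (quartiles -0.04 and 0.14), against -0.01 over all measured genes (quartiles -0.13 and 0.13). Past 3 spot SDs, 12 members were higher (21.4%) and 2 were lower (3.57%). Over all measured genes these shares were 9.08% and 10.1%, and over genes above the median level 10.6% and 14.7%. The members were chosen with earlier results of these data known, so the contrast with all genes is a description only. The 12 were Atf6, Hyou1, Dnajb11, Sdf2l1, Creld2, Pdia4, Pdia5, Edem1, Edem2, Os9, Syvn1 and Derl3, and the 2 were Ero1lb and Sec62. The remaining 42 lay within 3 spot SDs of 0, and 28 of the 56 differed by less than 0.1. The direction of 11 members turned under at least 1 other scaling, namely Xbp1, Hsp90b1, Dnajc3, Calr, Pdia3, Sec61b, Sec61g, Spcs1, Spcs2, Stt3a and Stt3b, so no direction is drawn for these. Dnajc3 and Pdia3 turned only under median scaling, which adds 0.03 to every difference. Past 3 spot SDs, 3 members (Atf6, Dnajb11 and Ero1lb) lost their place under at least 1 other scaling and 11 gained one. Those that gained one did so on the higher side, except Canx on the lower. The share of all measured genes past 3 spot SDs under those scalings is not given here. These gains are therefore not read as a result about the members.

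**Figure D1:**
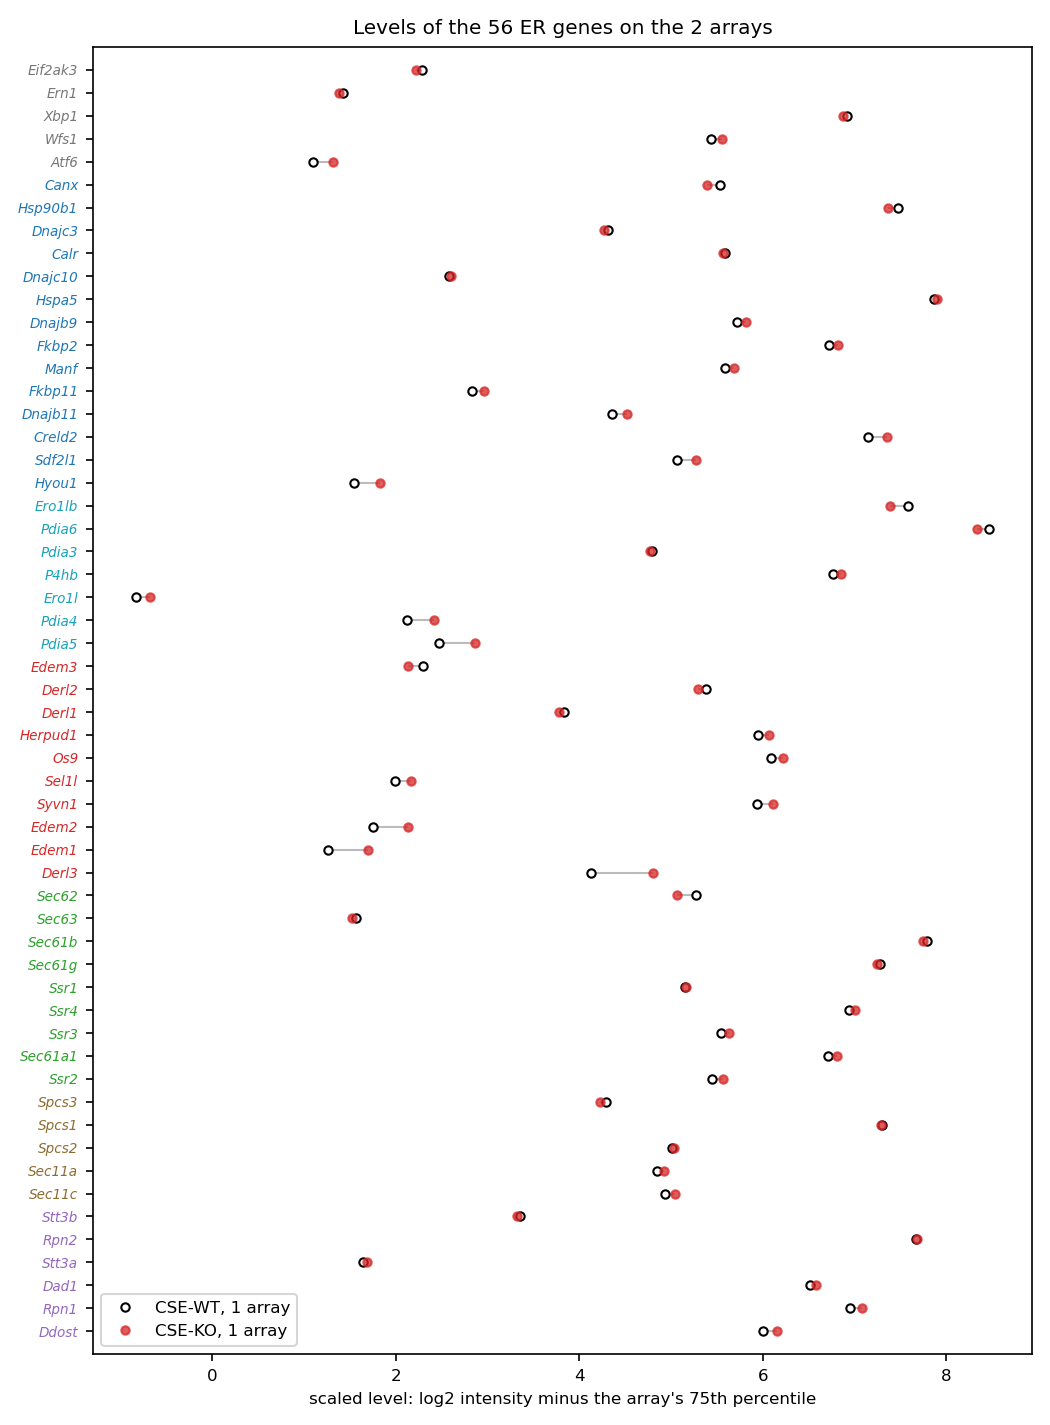
Scaled log2 level of each of the 56 ER genes (rows, coloured by role as in the plot of differences) on the CSE-WT array (open points) and the CSE-KO array (red points), 1 array each. Most pairs of points nearly coincide, and the widest gap is that of Derl3, from 4.13 to 4.81. Levels of different genes come from different probes and cannot be ranked against each other.

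**Figure D2:**
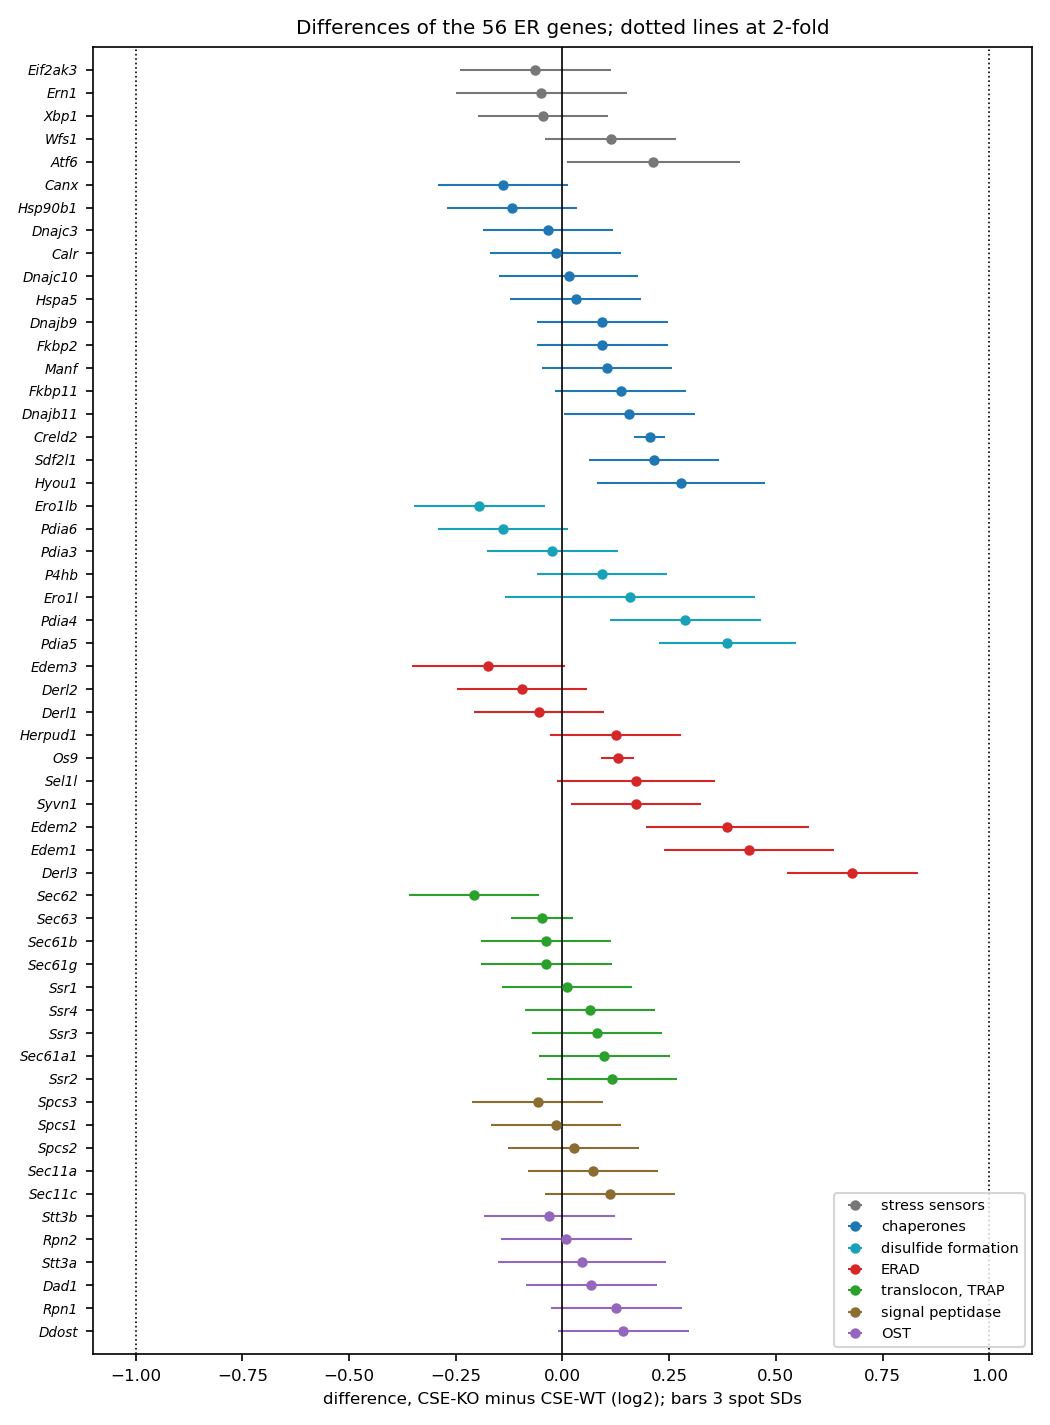
Difference in level, CSE-KO minus CSE-WT in log2 units, for each of the 56 genes, ordered by role and then by size, with bars of 3 spot SDs on each side and dotted lines at 2-fold. All points lie inside the 2-fold lines. The bars of 12 genes lie wholly above 0 and those of Ero1lb and Sec62 wholly below it.

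ERAD held the largest differences. In CSE-KO 7 of its 10 genes were higher, 5 of them past 3 spot SDs, and none was lower past it. Their median was 0.15, or 0.13 over the 9 other than Derl3. Derl3 encodes a derlin, a membrane protein of the retrotranslocation channel that is prominent in secretory cells. Its level was 4.13 in CSE-WT and 4.81 in CSE-KO, a difference of 0.68 (spot SD 0.05) or 1.60-fold. Its probe lies at chr10:75358503-75358562 on mm9, and the gene spots around it on the slide had a median difference of -0.02 from the rest of the array. Its relatives Derl1 and Derl2 did not share the difference. Derl1 had 3.83 and 3.78, and its probes gave -0.05 and -0.01. Derl2 had 5.39 and 5.29, and its 3 probes lay between -0.09 and -0.01. All measured probes of these 2 derlins were thus slightly lower in CSE-KO, within 3 spot SDs for the probe used.

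The EDEM proteins, lectins that trim mannose from misfolded glycoproteins and so mark them for degradation, were split. Edem1 was at 1.26 in CSE-WT and 1.70 in CSE-KO, a difference of 0.44 (spot SD 0.07) or 1.35-fold. Edem2 was at 1.75 and 2.13, a difference of 0.39 (spot SD 0.06) or 1.31-fold. These 2 were the next largest ERAD differences after Derl3. Edem3 went the other way, from 2.30 to 2.13 (-0.17, spot SD 0.06), within 3 spot SDs. The probes used lie at chr6:108808920-108808979 for Edem1 and chr2:155534678-155534737 for Edem2 (mm9). Where they fall within exons was not determined.

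The HRD1 complex ubiquitinates ERAD substrates. Syvn1, the ligase HRD1 itself, was at 5.94 and 6.11, a difference of 0.17 (spot SD 0.05) or 1.13-fold. Os9, the lectin that hands substrates to the complex, was at 6.10 and 6.23, a difference of 0.13 or 1.09-fold. The Os9 probe was printed 10 times, and its spots ran from 6.06 to 6.14 on the CSE-WT array and from 6.19 to 6.30 on the CSE-KO array. The spots of the arrays did not overlap, and their mean difference had a spot SD of 0.013. With the spot SD of 0.051 that holds for a single bright spot, Os9 would not pass 3 spot SDs. Sel1l, the adaptor of HRD1, was at 1.99 and 2.17 (0.17, spot SD 0.06), and Herpud1, a membrane protein induced by ER stress, at 5.95 and 6.07 (0.12). Neither passed 3 spot SDs by the scaling used here, but Herpud1 did under all 4 other scalings (0.16 to 0.21) and Sel1l under median scaling (0.21).

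Among the 14 chaperones and co-chaperones 10 were higher, 4 of them past 3 spot SDs, and none was lower past it (median 0.09). Hyou1, a nucleotide exchange factor for BiP, was at 1.55 in CSE-WT and 1.83 in CSE-KO, a difference of 0.28 (spot SD 0.07) or 1.21-fold. Sdf2l1, which works with the co-chaperone ERdj3, was at 5.06 and 5.28, a difference of 0.21 (spot SD 0.05) or 1.16-fold. Dnajb11, which encodes ERdj3, was at 4.36 and 4.52, a difference of 0.16 (spot SD 0.05) or 1.11-fold. Dnajb11 lost its place past 3 spot SDs after normexp (0.12). Hspa5, the gene of BiP, was at 7.87 and 7.90, a difference of 0.03 (spot SD 0.05).

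Creld2, an ER-resident protein induced by ER stress, was the most precisely measured chaperone-related gene. Its probe was printed 10 times, with spots from 7.13 to 7.20 on the CSE-WT array and from 7.31 to 7.40 on the CSE-KO array. No spot of one array reached those of the other. The difference was 0.20 (spot SD 0.012) or 1.15-fold, in levels of 7.15 and 7.35.

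Other chaperones stayed within 3 spot SDs by the scaling used here. Under other scalings Fkbp11 was past it on the higher side in 3 of 4 (0.15 to 0.17), and after normexp so were Dnajb9 (0.17) and Fkbp2 (0.22), with Canx past it on the lower side (-0.17). Hsp90b1, the ER chaperone GRP94, was at 7.48 and 7.36 (-0.12, but 0.04 after normexp), and the membrane lectin chaperone Canx (calnexin) was at 5.53 and 5.39 (-0.14). Its soluble relative Calr (calreticulin) was at 5.58 and 5.57 (-0.02). None of these 3 chaperones was higher in CSE-KO by the scaling used here. Small positive differences were seen for Fkbp11 (0.14), Manf (0.10), Dnajb9 (0.09) and Fkbp2 (0.09). The first and last of these are prolyl isomerases, Manf is a secreted protein induced by ER stress, and Dnajb9 is the BiP co-chaperone ERdj4. The BiP co-chaperones Dnajc10 (0.01) and Dnajc3 (-0.03) did not differ beyond 1 spot SD.

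Among disulfide isomerases and their oxidases, 4 of 7 were higher, 2 past 3 spot SDs, and 1 was lower past it (median 0.09). Pdia5 was at 2.47 in CSE-WT and 2.86 in CSE-KO, a difference of 0.39 (spot SD 0.05) or 1.31-fold. Pdia4, which encodes ERp72, was at 2.12 and 2.41, a difference of 0.29 (spot SD 0.06) or 1.22-fold. Both are disulfide isomerases of the ER lumen. Ero1lb encodes the ER oxidase ERO1-beta, an isoform enriched in pancreatic islets, and had the largest negative difference of the folding genes. It was at 7.58 and 7.39, a difference of -0.19 (spot SD 0.05) or 1.14-fold lower, and it did not pass 3 spot SDs under quantile scaling or in the authors' deposited table (-0.14 in both). The related oxidase Ero1l was at -0.84 and -0.68 (0.16, spot SD 0.10), within 3 spot SDs. Pdia6 was at 8.47 and 8.33 (-0.14 by the probe used and -0.01 by the other). P4hb, the classical disulfide isomerase, was at 6.76 and 6.85 (0.09, and 0.17 and past 3 spot SDs after normexp), and Pdia3, which acts with calnexin and calreticulin, at 4.80 and 4.77 (-0.02). The disulfide genes therefore included differences in both directions.

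Of the stress sensors 2 of 5 were higher and 3 lower, with a median of -0.05 that turned to 0.01 under quantile scaling and in the authors' deposited table. Atf6, a membrane-bound transcription factor released by cleavage, had 1112 and 1339 units before scaling, a scaled difference of 0.21 (spot SD 0.07) or 1.16-fold, past 3 spot SDs (0.13 after normexp, within them). Wfs1, the ER membrane protein mutated in Wolfram syndrome, was at 5.44 and 5.55 (0.11, and 0.18 and past 3 spot SDs after normexp). Xbp1 was at 6.92 and 6.87 (-0.05, but 0.01 under quantile scaling), without telling its spliced from its unspliced mRNA. Eif2ak3 was at 2.28 and 2.22 (-0.06). Ern1 was at 1.43 and 1.38 (-0.05), its other measured probe gave -0.19, and 2 further probes were not well above background. The other sensor genes stayed within 3 spot SDs under all scalings tried.

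Genes of translocation, signal cleavage and glycosylation differed little. Of 20 genes 13 were higher, 0 past 3 spot SDs by the scaling used here, and 1 was lower past it, and the median was 0.04 (range -0.21 to 0.14). The exception was Sec62, a partner of the Sec61 channel for post-translational entry and for turnover of the ER itself. It was at 5.27 in CSE-WT and 5.06 in CSE-KO, a difference of -0.21 (spot SD 0.05) or 1.15-fold lower, and its other probe gave -0.24. Its partner Sec63 was at 1.57 and 1.52 (-0.05). The Sec63 probe was printed 10 times, and its spots overlapped between the arrays (1.49 to 1.71 and 1.46 to 1.63). The channel subunit gene Sec61a1 was at 6.71 and 6.81 (0.10). Sec61g was at 7.28 and 7.24 (-0.04). The 3 probes of Sec61b were all lower, with -0.04 for the probe used and -0.18 and -0.13 for the others. The probe with -0.18 (spot SD 0.051) was past 3 spot SDs, unlike the probe used. The 4 genes of the TRAP complex, which assists Sec61, were higher by 0.01 (Ssr1) to 0.12 (Ssr2, from 5.45 to 5.57), none past 3 spot SDs apart from Ssr2 after normexp (0.16).

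Signal peptidase, which cuts the signal peptide from the entering chain, was close to level. Its 5 genes had a median of 0.03, from -0.06 for Spcs3 (4.29 and 4.23) to 0.11 for the catalytic subunit gene Sec11c (4.93 and 5.04). The other catalytic subunit gene, Sec11a, was at 4.85 and 4.92 (0.07). Oligosaccharyltransferase, which attaches N-glycans, had 5 of 6 genes higher with a median of 0.06. Ddost was at 6.01 and 6.15 (0.14), the ribophorin gene Rpn1 at 6.96 and 7.08 (0.13) and Dad1 at 6.51 and 6.58 (0.07), each within 3 spot SDs. The catalytic subunit genes Stt3a (0.05) and Stt3b (-0.03) and the other ribophorin gene Rpn2 (0.01) were nearly equal on the arrays. By the scaling used here no gene of either complex passed 3 spot SDs. Ddost did so under all 4 other scalings (0.18 in each), and Rpn1 under median scaling and in the authors' deposited table (0.16 in both).

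**Figure D3:**
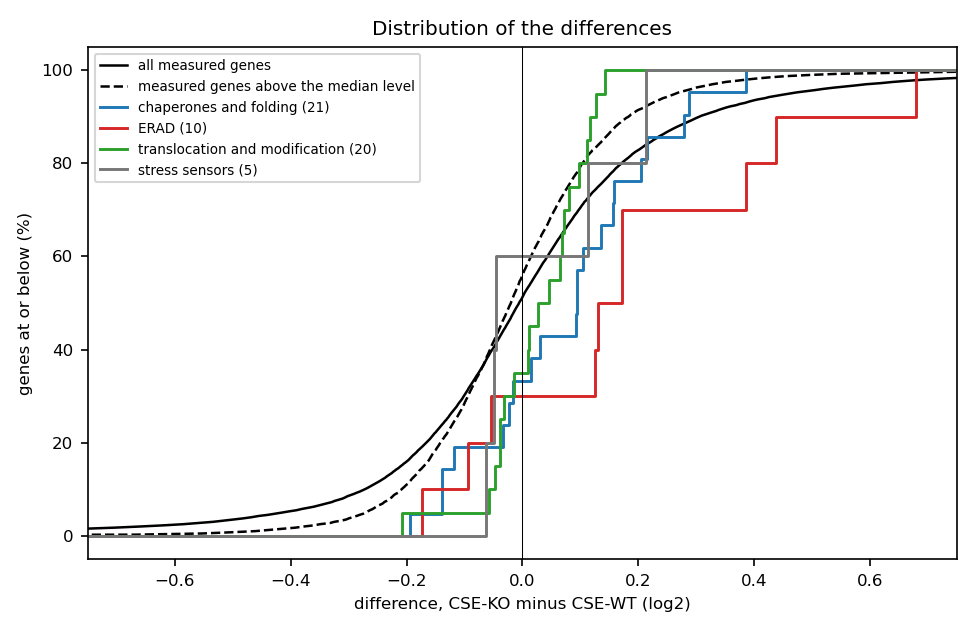
Cumulative share of genes (vertical axis, percent) at or below each difference, CSE-KO minus CSE-WT in log2 units (horizontal axis), for the 4 groups of ER genes in colour, all 22160 measured genes (solid black) and the 11080 above the median level (dashed). The ERAD curve lies farthest to the right for most of its height, with a median of 0.15, and the translocation genes span the range from -0.21 to 0.14.

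The size of these differences can be set beside the disagreement between probes of 1 gene. Of the 56 genes 15 had over 1 measured probe, and for 11 of them all probes lay on 1 side of 0. In Dnajc10, Sec63, Ssr3 and Stt3b the probes lay on both sides. Probes of 1 gene differed by a median of 0.07, and by 0.24 at most, in Stt3b, whose probes gave -0.03 and 0.21. Sec62 was the only gene past 3 spot SDs that had a second measured probe, and its probes gave -0.21 and -0.24. Derl3, Edem1, Edem2, Pdia4 and Pdia5 each rest on 1 probe, so no second probe could be compared. The second probes of Dnajb11 and Dad1 were not well above background.

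**Figure D4:**
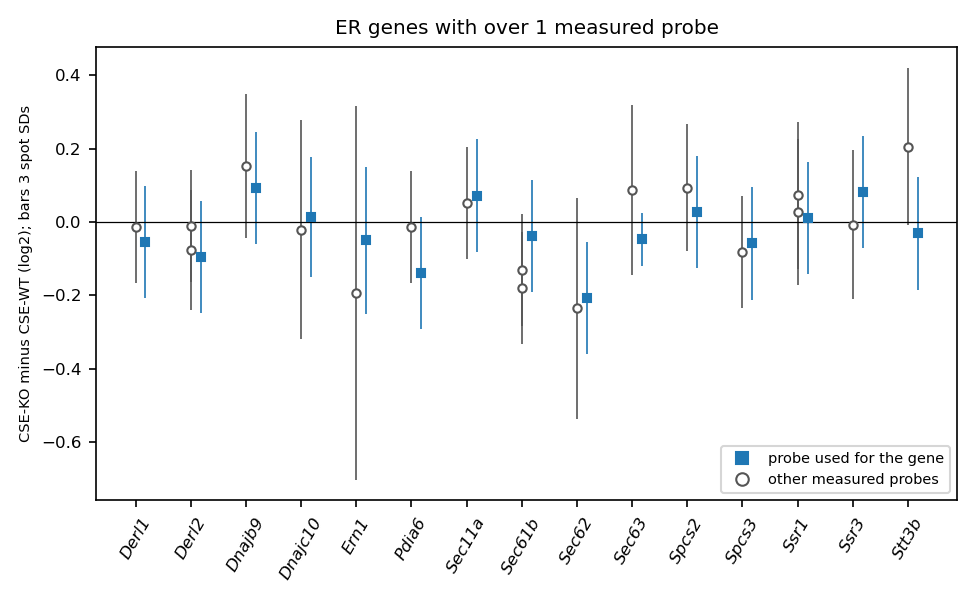
Difference, CSE-KO minus CSE-WT in log2 units, of each measured probe of the 15 ER genes with over 1 such probe. Filled squares are the probe used for the gene, open circles the others, and bars are 3 spot SDs. The probes of Sec62 lie together near -0.2, whereas those of Stt3b lie on either side of 0.

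Promoters were searched for the elements through which ATF6 and XBP1 act, to see whether genes that share one also shared a direction. Sequences were RefSeq promoters (GRCm38.p6, 250 bases before to 50 after a start), found for 48 of the 56 genes. Atf6, Hyou1, Manf, Derl1, Sec61a1, Ssr2, Sec11c and Spcs3 had no entry. The ER stress response element (ERSE) was searched on both strands as CCAAT and CCACG with any 9 bases between them. It was found in 10 of the 48 genes (20.8%), against 0.137% of 27025 genes in the table. The shorter ERSE-II, ATTGG and CCACG with any 1 base between them, was found in Herpud1 and Dnajb11, against 0.0444% of all genes. The XBP1 element TGACGTGG was in 0 of 48 and in 0.714% of all. The windows of 6 genes are shown because they hold the same element and span the range of differences, with the fixed bases of the element in capitals and lower case around them, on the strand of the gene.
Derl3: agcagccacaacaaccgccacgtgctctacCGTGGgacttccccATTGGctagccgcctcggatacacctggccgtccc
Creld2: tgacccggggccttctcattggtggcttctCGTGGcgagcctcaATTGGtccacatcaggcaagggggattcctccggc
Syvn1: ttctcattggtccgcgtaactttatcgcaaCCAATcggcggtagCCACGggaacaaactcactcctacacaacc
Hspa5: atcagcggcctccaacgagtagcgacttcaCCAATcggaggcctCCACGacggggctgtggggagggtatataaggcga
Hsp90b1, farther element: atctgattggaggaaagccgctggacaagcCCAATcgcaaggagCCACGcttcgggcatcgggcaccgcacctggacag
Hsp90b1, nearer element: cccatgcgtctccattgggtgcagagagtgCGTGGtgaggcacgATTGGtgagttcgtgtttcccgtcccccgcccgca
Ero1lb: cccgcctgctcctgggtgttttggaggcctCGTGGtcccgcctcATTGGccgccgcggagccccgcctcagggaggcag

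These windows lie on GRCm38.p6 at chr10:75893212-75893290 (plus strand) for Derl3, chr15:88819490-88819568 (plus) for Creld2, chr19:6046502-6046575 (plus) for Syvn1 and chr2:34771995-34772073 (plus) for Hspa5. Those of Hsp90b1 lie at chr10:86705608-86705686 and chr10:86705503-86705581 (minus), and that of Ero1lb at chr13:12565652-12565730 (plus). In Derl3, Creld2, Ero1lb and the nearer element of Hsp90b1 the element lies on the other strand, so it reads CGTGG first and ATTGG last. The element began 65 bases before the start in Hspa5, 44 in Syvn1, 126 in Creld2, 156 in Derl3 and 201 in Ero1lb.

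Genes that share the ERSE did not share a direction. Of the 10, Derl3 (0.68), Creld2 (0.20), Syvn1 (0.17) and Hspa5 (0.03) were higher in CSE-KO, the first 3 past 3 spot SDs. Calr (-0.02), Dnajc3 (-0.03), Hsp90b1 (-0.12), Pdia6 (-0.14), Canx (-0.14) and Ero1lb (-0.19) were lower, the last past 3 spot SDs. Their median was -0.03, which turned to between 0.0007 and 0.0099 under the 4 other scalings, with 5 or 6 of the 10 higher. That of the 38 genes with a promoter but no ERSE was 0.07, of which 26 were higher. Past 3 spot SDs, 7 of these 38 were higher (18.4%) and 1 lower (2.63%). Of the 10 with ERSE, 3 were higher (30%) and 1 lower (10%) past it. Hsp90b1, Calr and Dnajc3 turned direction under another scaling, as above, and the difference between these groups was not tested. Herpud1 and Dnajb11, with ERSE-II, had differences of 0.12 and 0.16. A match of letters is a description and not proof of a working site.

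Neighbouring pathways were read from 7 further lists chosen by function, also with earlier results of these data known. Over the 158 measured genes of these lists 83 were higher (52.5%) and the median was 0.01. Past 3 spot SDs, 22 were higher (13.9%) and 14 lower (8.86%). The shares were 9.08% and 10.1% over all measured genes, and 10.6% and 14.7% over genes above the median level. The counts of each list below are to be read beside these shares. Other ER folding factors had 19 of 34 higher (median 0.02), with 5 higher and 3 lower past 3 spot SDs. Pdia2, the pancreas-enriched disulfide isomerase, was at 2.09 and 2.36 (0.27). The peroxidase gene Gpx8 was at -0.63 and -1.21 (-0.57), and Uggt2, a relative of the glucosyltransferase that senses glycoprotein folding, was at -0.16 and -0.45 (-0.29). Clgn, the germ-cell relative of calnexin, was at -3.04 and -2.70 (0.34), within 3 spot SDs.

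Other ERAD components did not show the differences of Derl3, Edem1 and Edem2. Of 25 measured, 11 were higher (median -0.03), 1 higher and 1 lower past 3 spot SDs. Vcp, the ATPase that pulls substrates from the membrane, was at 4.62 and 4.77 (0.15), and its cofactor Nploc4 was at 2.89 and 3.05 (0.15). Tmub1 was at 3.15 and 2.95 (-0.20), and Ubxn4 at -0.75 and -0.86 (-0.11). The largest difference in this list was thus 0.20 in size.

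The signal recognition particle, which brings ribosomes to the ER, and its receptor were mixed, with 5 of 9 higher (median 0.00) but 3 lower and 2 higher past 3 spot SDs. Srp54a, the subunit that binds the signal peptide, was at 1.62 and 1.16 (-0.46), and Srp54b at -2.53 and -3.17 (-0.64). These 2 genes are near-identical copies whose probes may bind both, and the dim spots around the Srp54a probe had a median difference of -1.34. Srp19 was at 2.93 and 2.65 (-0.27), whereas the receptor gene Srprb was at 2.03 and 2.30 (0.27). Particle and receptor genes past 3 spot SDs therefore lay on opposite sides.

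Genes of N-glycan assembly and further oligosaccharyltransferase subunits were higher in 15 of 24 (median 0.05), 5 past 3 spot SDs, with 1 lower. They included the mannosyltransferases Alg12 (0.12 and 0.40, a difference of 0.28) and Alg3 (0.39 and 0.61, 0.22). Dpm2, a subunit for dolichol phosphate mannose synthesis, was at 4.08 and 4.30 (0.22), and Krtcap2, an oligosaccharyltransferase subunit, at 6.00 and 6.19 (0.19). Other translocation and insertion genes were higher in 6 of 16 (median -0.03), with Get4 at 3.57 and 3.41 (-0.16), past 3 spot SDs, and Tmem85 (-0.13), Tram1 (-0.12) and Tram2 (0.29) within. Vesicle coat and cargo genes for ER export were higher in 18 of 37 (median -0.01), 5 higher and 2 lower past 3 spot SDs. Kdelr3, a receptor that returns ER residents, was at 2.19 and 2.48 (0.29), and the coat gene Sec31a at 5.21 and 5.44 (0.23). Tmed5 (-0.24) and Tmed7 (-0.25), which encode cargo proteins of these vesicles, were lower, Tmed5 past 3 spot SDs, and the spots around the Tmed5 probe had a median difference of -0.72.

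Listed ATF4 and CHOP output genes were higher in 9 of 13 measured (69.2%, median 0.14), against 48.7% of all measured genes. Past 3 spot SDs, 4 were higher (30.8%) and 3 lower (23.1%), against 9.08% and 10.1% of all. PERK activity itself was not measured. Atf4 (0.14) and Ddit3, the gene of CHOP (-0.12), were within 3 spot SDs. The pseudokinase gene Trib3 was at 1.32 and 2.03 (0.71), and Chac1, which degrades glutathione, was at 3.87 and 4.50 (0.63). Asns, asparagine synthetase, was at 6.74 and 6.32 (-0.43), and the stress protein gene Nupr1 was at 6.03 and 5.44 (-0.59). Genes of this list that passed 3 spot SDs thus lay on both sides of 0.

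**Figure D5:**
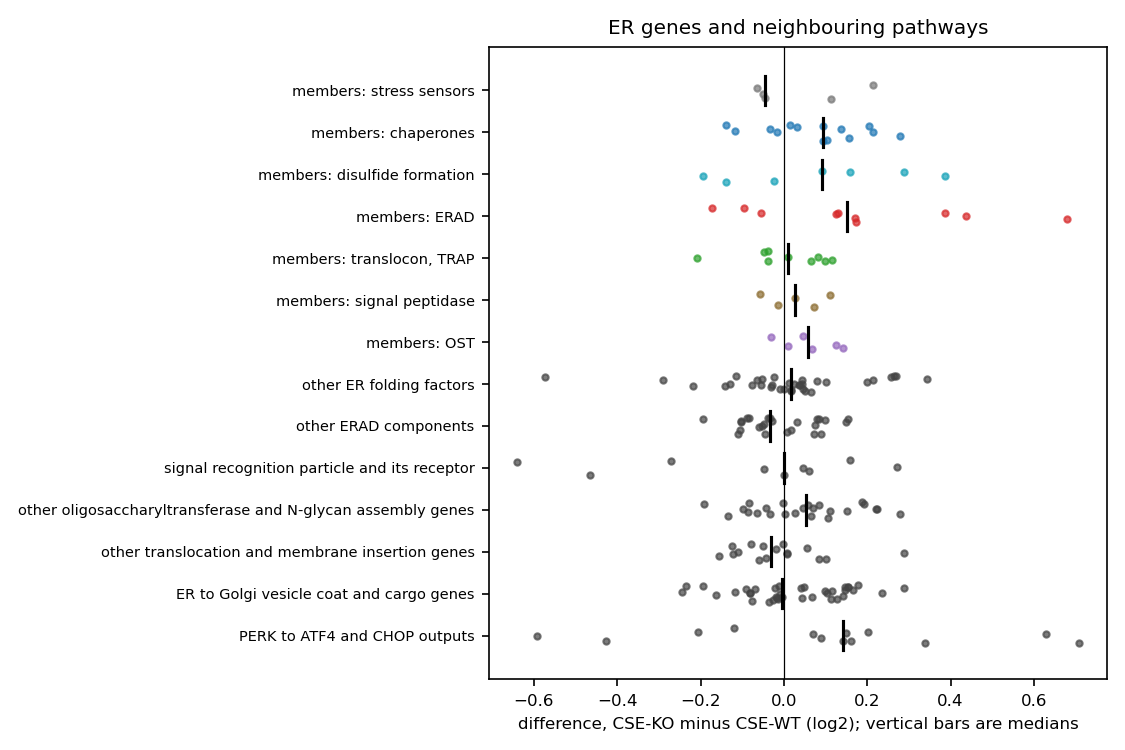
Difference, CSE-KO minus CSE-WT in log2 units, of every measured gene (points, spread vertically for visibility only) in the 7 lists of ER genes (coloured) and 7 lists of neighbouring pathways (grey), with the median of each list as a vertical bar. The medians lie between -0.05 for the stress sensors and 0.15 for ERAD, and most points lie within 0.3 of 0.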

How the data were processed

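Per the file headers, Agilent Feature Extraction 10.7.1.1 turned the scans of an mm9 design into a spatially detrended spot intensity with no local background subtracted. Version 9.5.1.1 is the one in the submitters' processing notes. The authors deposited these intensity files and a linear table with 1 intensity per probe, whose columns had equal medians (37.7), correlated at 0.9999 with the log2 signal of their own array (0.985 and 0.986 with the other) and whose exact normalization is unknown. Here outlier-flagged spots (139 and 169 of 59305) were left out, the log2 was taken, spots of a probe were averaged and the 75th percentile of each array was subtracted. Where several probes of a gene were measured, the one with the highest mean level stood for the gene. Spot SDs came from the probes printed 10 times, in 10 bins of level, and for such probes from their own spots. Without replicates, counts past 2-fold and past 3 spot SDs and medians stand in for a test. Members whose difference passed 3 spot SDs or was among the 3 largest of their list are given with both levels. In the lists of neighbouring pathways, up to 4 genes with the largest differences are given, besides Atf4 and Ddit3. Of the cell type markers only Gcg, Amy2a5 and Ins2 are given with levels, as examples outside this rule. Members and lists were chosen with earlier results of these data known. Background correction by normexp used limma 3.58.1 in R 4.3.3. The rest used Python 3.11.15. In all 9 alternative settings were tried.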

Additional observations from a re-analysis of the deposited data

How the results depend on the processing

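Of the 24 ER genes named by the rule, 0 changed sign under 9 alternatives. These included median scaling, quantile scaling, normexp with quantile, the authors' deposited table, no filter on dim probes, genes above the median level and the mean of probes. The others left out probes in local patches or, chosen after seeing the data, in patches of dim spots. Only the 4 scalings could change the value of every named gene. The dim-probe, level and patch settings returned the same value for each named gene. The mean of probes changed only Sec62, Sec11a and Spcs3. A patch was called where the surrounding spots had a median difference over 0.5 in size from the rest of the array. None of the probes used for the ER genes lay in a patch of either kind. That limit is larger than every member difference except that of Derl3, so smaller local shifts were not tested. Examples in the dim spots are -0.49 around the Spcs1 probe, 0.39 around the Fkbp2 probe and 0.26 around the Atf6 probe. In the spots around the Hyou1 probe it was -0.24. The median of the stress sensors turned from -0.05 to 0.014 under quantile scaling and to 0.015 in the authors' deposited table, whereas the other medians stayed above 0 (0.07 to 0.11 over all members, 0.15 to 0.19 for ERAD, 0.09 to 0.13 for chaperones and folding enzymes, 0.04 to 0.07 for translocation genes). Between 35 and 41 members were higher. Of all measured genes 48.7% were higher by the scaling used here and 52.1% to 56.2% under the 4 others. Past 3 spot SDs, 12 to 17 members were higher, and the share of all genes under the other scalings is not given here. Past it on the lower side were 1 to 3 members. Only 1 was so under quantile scaling and 1 in the authors' deposited table, where Ero1lb (-0.14) no longer passed. Median scaling moved all genes up by a median of 0.03, and 11 of the 56 members turned sign under at least 1 of the 4 other scalings. No paired analysis was possible because each genotype had 1 array. The number of arrays limits every value here.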
